A study of Homo sapiens with 18 samples.

Results

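The 9 genes described here belong to the NF-kB pathway: the subunits NFKB1, NFKB2, RELA and RELB, the inhibitors NFKBIA and TNFAIP3, and the survival targets BIRC2, BIRC3 and SOD2. They were chosen by name, and each was found by its Ensembl ID among the 60252 genes of the count table. All 9 were among the 21326 genes that passed the filter on low counts. RNA was sequenced from MCF-10A, an immortalised, non-tumorigenic line of human mammary epithelial cells, grown for 8 days in Matrigel, a basement membrane gel in which these cells form hollow spheres. Every culture stably carried a retroviral vector. The vector held the coding sequence of SRSF2, SRSF4, SRSF6 or SRSF9, which are SR proteins that regulate pre-mRNA splicing, or of the SR-like protein TRA2B, and it was the empty PWZL plasmid in Control. The sources used here do not say whether each line was a pool or a clone, nor whether replicates were separate cultures. The p-values therefore reflect variation among the sequenced libraries, some of which may be technical.

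NF-kB is a family of dimeric transcription factors held inactive in the cytoplasm by inhibitory proteins. Signals from receptors of tumour necrosis factor and interleukin 1 lead to destruction of the inhibitor and release of RELA with the p50 product of NFKB1, while a slower route processes NFKB2 so that it acts with RELB. In epithelium the pathway induces its own inhibitors, inflammatory mediators and genes that protect cells from death.

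Lanes of a single library were summed, which left 14 libraries of 42959069 to 121601376 counts, 2 each for SRSF4-OE, SRSF6-OE, TRA2B-OE and Control (OE, overexpression) and 3 each for the SRSF2-OE and SRSF9-OE groups. In each of the 4 groups of 2, 1 library was the sum of 2 lanes and carried a library ID as its label, and the other had a numeric label. SRSF2-OE and SRSF9-OE had numeric labels alone, and their values against Control are adjusted for label set from the other groups. The introduced factor lay 0.71 to 2.71 log2 units above Control in its own group, except SRSF6, at 283 and 417 CPM in the libraries labelled SRSF6-OE against 239 and 400 CPM in Control (log2 fold change 0.15 ± 0.22). Groups are therefore named by their labels throughout. Mitochondrial genes took 6.45% to 16.4% of counts, the highest shares being those of SRSF2-OE replicate 1 (16.4%) and TRA2B-OE replicate 3 (14.3%). The 10 epithelial markers summed to 16430 to 42830 CPM in every library. The 6 fibroblast markers summed to 160 to 433 CPM in overexpression libraries against 263 to 549.8 CPM in Control, mostly from COL1A1 and DCN (6.30 to 363 CPM of DCN against 413 and 126 CPM), although COL3A1 stayed below 0.1 CPM in all 14. The 6 immune markers summed to 7.32 to 54.6 CPM against 37.2 to 42.8 CPM, mostly CSF1R. Levels are in CPM, counts scaled to a common normalised library size.

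The survival targets BIRC3 and SOD2 held the widest differences between group means among the 9 genes, 5.28-fold and 5.95-fold from the lowest to the highest group. SOD2 was lower in all 12 overexpression libraries than in both Control libraries, as were 3.87% of all genes. BIRC3 was lower in 10 of 12, the exceptions being those labelled SRSF6-OE. The subunit mRNAs NFKB1, NFKB2 and RELA stayed much closer to Control. The inhibitor NFKBIA was below both Control libraries in 11 of 12 overexpression libraries, by a smaller margin. Separation of a whole group below both Control libraries was found for 17.5% to 27.2% of all genes, depending on the group. The libraries labelled SRSF6-OE were the ones in which 5 of the 9 genes lay above both Control libraries. That position was found for 22.8% of all genes.

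**Figure D1:**
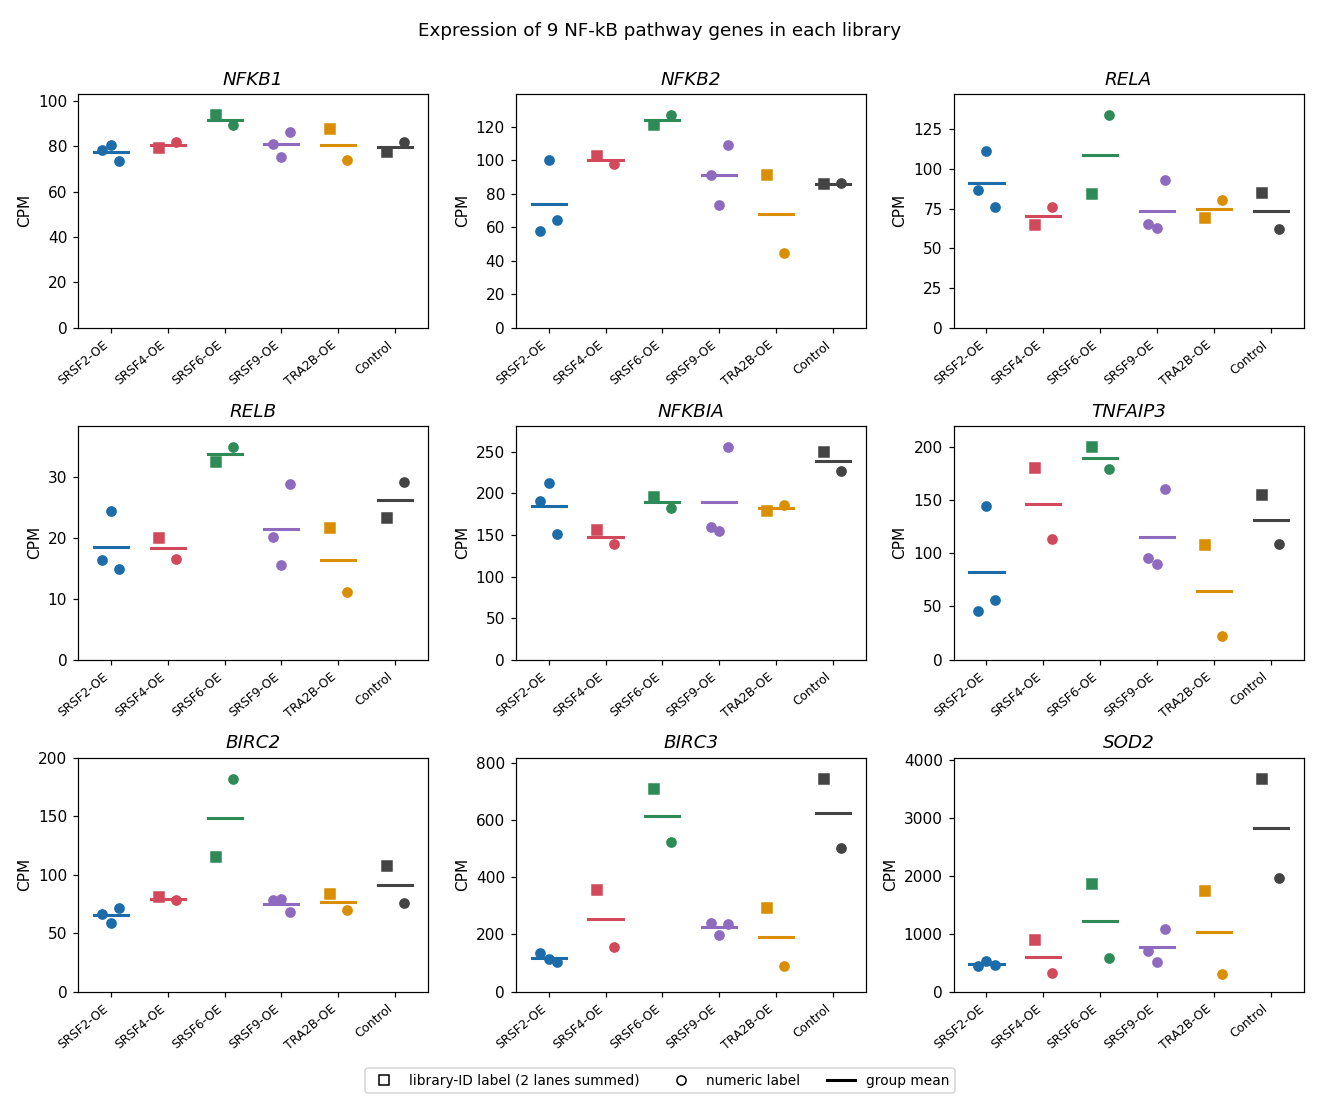
Expression of each of the 9 genes in CPM (vertical axis from 0) in the 14 libraries, with overexpression groups on the left and Control on the right of each panel. Squares are sums of 2 lanes of a library with a library ID, circles are libraries with numeric labels and bars are group means, and the SOD2 panel shows 12 of 12 overexpression libraries under both Control libraries.

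With edgeR's quasi-likelihood test, adjusted by Benjamini and Hochberg over all 21326 genes, 0 of the 9 genes passed an adjusted p of 0.05 against Control in any overexpression group. The background of calls over all genes was as low: 0% in SRSF2-OE, 0% in SRSF4-OE, 0.00469% in SRSF6-OE, 0% in SRSF9-OE and 0.00938% in TRA2B-OE. The test called none of the introduced factors in their own groups either (adjusted p 0.109 to 0.718), SRSF9 at 2.71 log2 units included. At an unadjusted p under 0.05, 2 of the 9 were lower in SRSF2-OE, 3 in SRSF4-OE, 2 in SRSF9-OE and 2 in TRA2B-OE, and in the libraries labelled SRSF6-OE 1 was higher and 1 lower. The share of all genes at that p, in either direction, was 13.4% in SRSF2-OE, 14.9% in SRSF4-OE, 19.5% in SRSF6-OE, 4.47% in SRSF9-OE and 12% in TRA2B-OE. DESeq2 with the same terms called BIRC3 and SOD2 lower in SRSF2-OE, SRSF4-OE and TRA2B-OE, SOD2 lower in SRSF6-OE and 0 of 9 in SRSF9-OE. Among all genes DESeq2 called 1.1% lower in SRSF2-OE, 1.25% in SRSF4-OE, 1.95% in SRSF6-OE, 0.0141% in SRSF9-OE and 0.868% in TRA2B-OE. Of the introduced factors DESeq2 called SRSF4, SRSF9 and TRA2B higher in their own groups, and neither SRSF2 nor SRSF6. Voom with limma called 0 of 9 in every contrast. In the F test over the 6 groups edgeR called 0 of 9, with 0.0422% of all genes called, and the smallest adjusted p was that of BIRC3 (0.083). The likelihood ratio test of DESeq2 called BIRC2, BIRC3 and SOD2, where 7.42% of all genes were called. Because edgeR is the test on which calls rest here, differences it did not call are given as values.

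SOD2 encodes the manganese superoxide dismutase of mitochondria, which turns superoxide into hydrogen peroxide. Its level was 433, 524 and 463 CPM in SRSF2-OE, 891 and 316 CPM in SRSF4-OE, 1861 and 579 CPM in SRSF6-OE, 694, 515 and 1073 CPM in SRSF9-OE and 1738 and 307 CPM in TRA2B-OE, against 3675 and 1958 CPM in Control. No overexpression library reached the lower Control library, and the summed libraries of SRSF6-OE and TRA2B-OE came nearest to it. Such a separation of all 12 libraries was found for 3.87% of all genes tested. The log2 fold change against Control was -1.73 ± 0.36 in SRSF2-OE (adjusted p = 0.158, edgeR), -2.38 ± 0.40 in SRSF4-OE (adjusted p = 0.212), -1.42 ± 0.39 in the libraries labelled SRSF6-OE (adjusted p = 0.161), -1.04 ± 0.36 in SRSF9-OE (adjusted p = 0.870) and -1.86 ± 0.40 in TRA2B-OE (adjusted p = 0.159). DESeq2 gave SOD2 adjusted p values of 0.0022 in SRSF2-OE, 1.2e-05 in SRSF4-OE, 0.019 in SRSF6-OE and 0.0010 in TRA2B-OE, all lower. The summed library held more SOD2 than the numeric one in each of the 4 groups that have both, Control included. Within a label set, the summed library lay 2.04, 0.98 and 1.08 log2 units below the summed Control library in SRSF4-OE, SRSF6-OE and TRA2B-OE. Among libraries with numeric labels the difference from Control replicate 3 was -2.05 in SRSF2-OE, -2.63 in SRSF4-OE, -1.76 in SRSF6-OE, -1.43 in SRSF9-OE and -2.67 in TRA2B-OE.

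Reads of SOD2 may be shared with overlapping genes, and the sources used here do not give the strand setting of the counting. WTAP, a subunit of the RNA methyltransferase complex, overlaps SOD2 on the opposite strand in the GENCODE annotation. On the same strand, whatever the setting, it is overlapped by another protein-coding entry named SOD2, the pseudogene HNRNPH1P1 and the small nuclear RNA gene RNU4ATAC18P. WTAP stood at 63.6 to 99.5 CPM in the 12 overexpression libraries, against 146.5 and 93.3 CPM in Control. It was less abundant than SOD2 in every library and below both Control libraries in 10 of 12 overexpression libraries. The part of WTAP and of the same-strand entries in the SOD2 counts was not tested. The endothelial receptor KDR was also lower, at 2.24 to 12.5 CPM in overexpression libraries against 26.2 and 20.1 CPM in Control. DESeq2 called KDR lower in SRSF6-OE and TRA2B-OE. The summed level of the 4 matched endothelial markers was 2.35 to 12.6 CPM against 20.2 to 26.2 CPM, nearly all of it KDR, since CDH5 and CLDN5 were below 0.1 CPM in every library and VWF reached at most 0.135 CPM. CD68, a macrophage marker, was 0.248 and 0.2501 CPM in SRSF4-OE and 0.269 and 0.172 CPM in SRSF6-OE, against 0.765 and 1.22 CPM in Control, and DESeq2 called it lower in both groups. CSF1R was 12.1 and 22.9 CPM in SRSF4-OE and 10.8 and 27.4 CPM in SRSF6-OE, against 35.5 and 40.5 CPM in Control, and was called by neither tool. The part of these markers in the SOD2 result was not tested. Fewer cells with a given mRNA and less of that mRNA per cell cannot be told apart in these bulk samples.

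BIRC3, or cIAP2, is a ubiquitin ligase recruited to receptors of tumour necrosis factor, where it restrains caspase activation. It stood at 136, 115 and 103 CPM in SRSF2-OE, 354 and 155 CPM in SRSF4-OE, 708 and 522 CPM in SRSF6-OE, 241, 198 and 238 CPM in SRSF9-OE and 294 and 88.1 CPM in TRA2B-OE, against 744 and 503 CPM in Control. All libraries of SRSF2-OE, SRSF4-OE, SRSF9-OE and TRA2B-OE were below both Control libraries, while those labelled SRSF6-OE overlapped them. For SRSF2-OE such a separation was shared by 17.5% of all genes, for SRSF4-OE by 27.2%, for SRSF9-OE by 17.6% and for TRA2B-OE by 18.2%. The log2 fold change of BIRC3 was -1.90 ± 0.27 in SRSF2-OE (adjusted p = 0.127, edgeR), -1.40 ± 0.29 in SRSF4-OE (adjusted p = 0.212), -0.00030 ± 0.28 in SRSF6-OE (adjusted p = 1.0), -0.96 ± 0.27 in SRSF9-OE (adjusted p = 0.870) and -1.89 ± 0.30 in TRA2B-OE (adjusted p = 0.088). DESeq2 gave BIRC3 adjusted p values of 6.2e-06 in SRSF2-OE, 0.0037 in SRSF4-OE and 5.0e-06 in TRA2B-OE. Without SRSF2-OE replicate 1, edgeR also called BIRC3 lower in SRSF2-OE, with an adjusted p of 0.041, in a fit that called 0.325% of all genes. Within label sets, BIRC3 lay 1.07 log2 units below Control in the summed library of SRSF4-OE and 1.34 below in that of TRA2B-OE. The differences among libraries with numeric labels were -2.10 in SRSF2-OE, -1.70 in SRSF4-OE, 0.052 in SRSF6-OE, -1.16 in SRSF9-OE and -2.51 in TRA2B-OE.

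BIRC2, or cIAP1, is the close relative of BIRC3 and degrades the kinase MAP3K14 in resting cells. It was measured at 66.0, 58.3 and 71.9 CPM in SRSF2-OE, 80.7 and 78.0 CPM in SRSF4-OE, 116 and 182 CPM in SRSF6-OE, 78.0, 79.3 and 68.4 CPM in SRSF9-OE and 83.5 and 69.7 CPM in TRA2B-OE, against 107 and 76.2 CPM in Control. Both libraries labelled SRSF6-OE lay above Control and all 3 of SRSF2-OE below it, with overlap in the other 3 groups. The same positions were found for 22.8% of all genes in SRSF6-OE and 17.5% in SRSF2-OE. The log2 fold change was 0.71 ± 0.24 in SRSF6-OE (unadjusted p = 0.014, adjusted p = 0.189, edgeR) and -0.46 ± 0.23 in SRSF2-OE (adjusted p = 0.416), and -0.26 to -0.21 in the other 3 groups. Nearly all of the SRSF6-OE difference came from replicate 3, which was 1.26 log2 units above the numeric Control library, while the summed library was 0.11 above its own. The effect differed between the label sets (summed minus numeric) by -1.15 log2 units at an unadjusted p of 0.0092, which did not pass adjustment over all genes (smallest adjusted p of 27 such tests 0.692, edgeR).

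**Figure D2:**
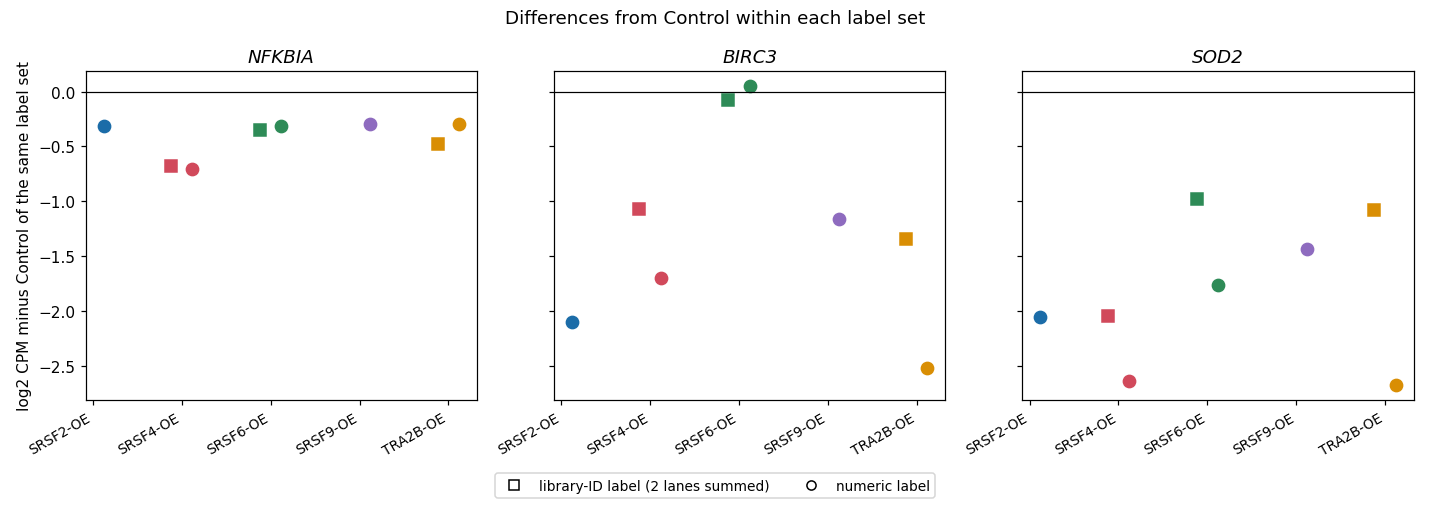
Difference of mean log2 CPM between each overexpression group and the Control library of the same label set (vertical axis, log2 units) for NFKBIA, BIRC3 and SOD2. Squares are summed libraries with a library ID and circles libraries with numeric labels, and every point lies below 0 except BIRC3 in the numeric library labelled SRSF6-OE (0.052).

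NFKBIA encodes IkB-alpha, the inhibitor that holds RELA dimers in the cytoplasm and is itself induced by NF-kB. Its level was 191, 213 and 151 CPM in SRSF2-OE, 156 and 139 CPM in SRSF4-OE, 196 and 183 CPM in SRSF6-OE, 160.2, 154 and 256 CPM in SRSF9-OE and 179 and 186 CPM in TRA2B-OE, against 249.8 and 227 CPM in Control. SRSF9-OE replicate 3 was the single overexpression library above both Control libraries, and the other 11 were below both. The separation of both libraries labelled SRSF6-OE from Control on the low side was shared by 24.4% of all genes. The share for the same separation was 17.5% in SRSF2-OE, 27.2% in SRSF4-OE and 18.2% in TRA2B-OE. Log2 fold changes of NFKBIA were -0.32 ± 0.24 in SRSF2-OE, -0.69 ± 0.25 in SRSF4-OE, -0.33 ± 0.25 in SRSF6-OE, -0.28 ± 0.24 in SRSF9-OE and -0.38 ± 0.25 in TRA2B-OE. The difference in SRSF4-OE had an unadjusted p of 0.020 and an adjusted p of 0.271 in edgeR. It was nearly equal in both label sets, at -0.68 in the summed library and -0.71 in the numeric one.

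TNFAIP3, or A20, is a ubiquitin-editing enzyme that shuts off signalling upstream of the inhibitor kinases. It stood at 45.8, 145 and 56.2 CPM in SRSF2-OE, 180 and 113 CPM in SRSF4-OE, 199.8 and 179 CPM in SRSF6-OE, 95.1, 89.8 and 160.3 CPM in SRSF9-OE and 108 and 21.9 CPM in TRA2B-OE, against 154 and 109 CPM in Control. Libraries of the same group lay far apart in SRSF2-OE and TRA2B-OE. The 2 lowest of all 14 libraries, TRA2B-OE replicate 3 and SRSF2-OE replicate 1, were the 2 with the highest mitochondrial share, and the part of that share was not tested. The log2 fold change was -1.26 ± 0.61 in TRA2B-OE (adjusted p = 0.450, edgeR), 0.58 ± 0.59 in SRSF6-OE (adjusted p = 0.585), -0.23 ± 0.57 in SRSF2-OE, 0.13 ± 0.59 in SRSF4-OE and 0.26 ± 0.57 in SRSF9-OE. In SRSF9-OE the sign depended on the label set term, since mean CPM was 115 ± 39.2 in SRSF9-OE (SD, n = 3) and 132 ± 32.2 in Control (SD, n = 2), and without that term the value was -0.19.

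Of the subunits, NFKB1 encodes the precursor of p50. It varied least of the 9 genes, between 73.3 and 93.7 CPM over the 14 libraries, a ratio of 1.28. It was 78.1, 80.5 and 73.3 CPM in SRSF2-OE, 79.1 and 82.0 CPM in SRSF4-OE, 93.7 and 89.2 CPM in SRSF6-OE, 81.0, 75.2 and 86.3 CPM in SRSF9-OE and 87.5 and 73.8 CPM in TRA2B-OE, against 77.5 and 81.7 CPM in Control. Both libraries labelled SRSF6-OE lay above Control and each other group overlapped it. Log2 fold changes of NFKB1 ran from -0.02 in SRSF2-OE to 0.20 ± 0.14 in SRSF6-OE, with an adjusted p of 0.418 in SRSF6-OE by edgeR. The same ratio of highest to lowest library was 8.45 for BIRC3, 9.13 for TNFAIP3 and 11.96 for SOD2.

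RELA, or p65, is the subunit with the transactivation domain of the fast route. It was measured at 86.9, 111 and 75.7 CPM in SRSF2-OE, 64.7 and 76.0 CPM in SRSF4-OE, 84.0 and 134 CPM in SRSF6-OE, 65.5, 62.6 and 92.8 CPM in SRSF9-OE and 68.9 and 80.6 CPM in TRA2B-OE, against 85.0 and 62.3 CPM in Control. Every group overlapped Control. The largest log2 fold change was 0.53 ± 0.28 in SRSF6-OE (adjusted p = 0.312, edgeR), and there too replicate 3 carried it, at 1.102 log2 units above the numeric Control library against -0.018 for the summed pair. An antisense-strand long non-coding gene overlaps RELA, and another antisense gene overlaps TNFAIP3, in the GENCODE annotation, so reads of these cannot be told apart where counting ignored strand.

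NFKB2 encodes the p100 precursor of the slower route. It was 57.7, 100.1 and 64.5 CPM in SRSF2-OE, 102 and 97.7 CPM in SRSF4-OE, 121 and 127 CPM in SRSF6-OE, 91.3, 73.2 and 109 CPM in SRSF9-OE and 90.8 and 44.6 CPM in TRA2B-OE, against 85.5 and 86.2 CPM in Control. Both libraries of SRSF4-OE and both labelled SRSF6-OE were above Control, and the 2 lowest were again TRA2B-OE replicate 3 and SRSF2-OE replicate 1. Of all genes, 22.8% were above Control in SRSF6-OE, and the share for SRSF4-OE is not given here. Its log2 fold change was 0.53 ± 0.32 in SRSF6-OE (adjusted p = 0.364, edgeR) and -0.39 ± 0.32 in TRA2B-OE (adjusted p = 0.683). Without the 2 libraries of highest mitochondrial share the TRA2B-OE value was 0.075.

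RELB, the partner of processed NFKB2, was the least abundant of the 9 genes. It stood at 16.3, 24.6 and 14.9 CPM in SRSF2-OE, 20.1 and 16.6 CPM in SRSF4-OE, 32.6 and 35.02 CPM in SRSF6-OE, 20.1, 15.5 and 28.9 CPM in SRSF9-OE and 21.7 and 11.2 CPM in TRA2B-OE, against 23.3 and 29.3 CPM in Control. SRSF4-OE and TRA2B-OE lay below both Control libraries and SRSF6-OE above both. Separation on the low side was found for 27.2% of all genes in SRSF4-OE and 18.2% in TRA2B-OE. The log2 fold changes were -0.42 ± 0.35 in SRSF2-OE, -0.54 ± 0.37 in SRSF4-OE, 0.35 ± 0.36 in SRSF6-OE, -0.21 ± 0.35 in SRSF9-OE and -0.72 ± 0.37 in TRA2B-OE, with adjusted p values of 0.470 to 0.927 in edgeR. Separation above both Control libraries in SRSF6-OE, which held for NFKB1, NFKB2, RELB, TNFAIP3 and BIRC2, was found for 22.8% of all genes.

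**Figure D3:**
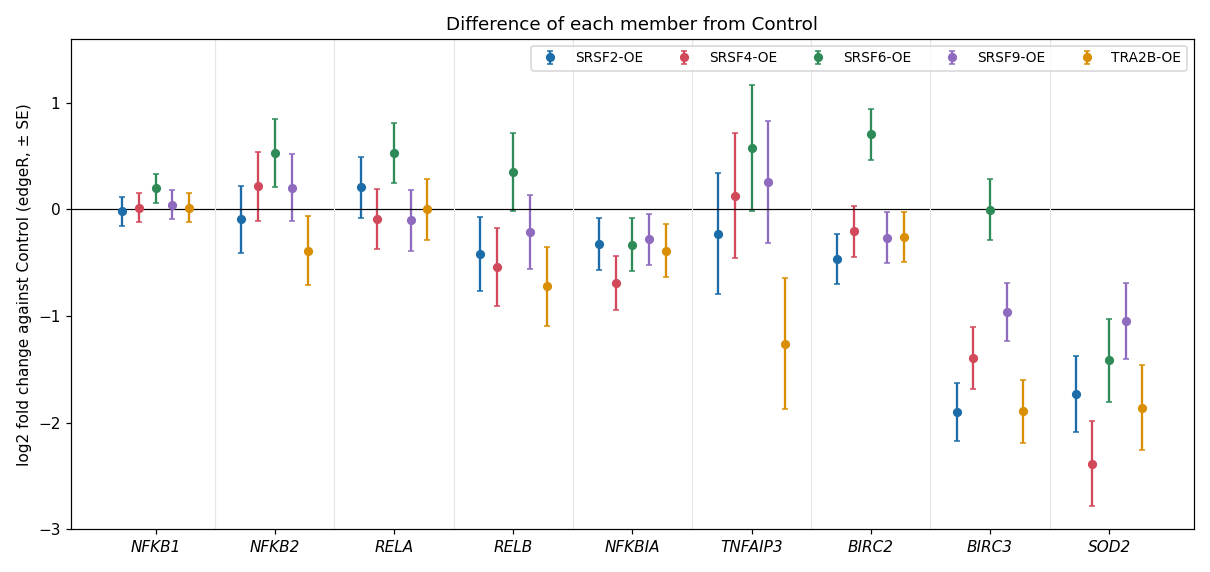
Log2 fold change against Control (vertical axis, points with bars of ± 1 SE from edgeR) of the 9 genes in the 5 overexpression groups. BIRC3 and SOD2 lie lowest, from -2.38 to -0.96 apart from BIRC3 in SRSF6-OE, and NFKB1 lies nearest 0.

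The median log2 fold change of the 9 genes was -0.32 in SRSF2-OE (8 of 9 below Control), -0.21 in SRSF4-OE (6 of 9), 0.35 in SRSF6-OE (3 of 9), -0.21 in SRSF9-OE (6 of 9) and -0.39 in TRA2B-OE (7 of 9). Leaving out 1 library at a time turned the sign of some uncalled values of BIRC2, BIRC3, NFKB1, NFKB2, RELA, RELB and TNFAIP3 but of none of NFKBIA or SOD2. Over all genes tested the median lay between -0.04 and 0.04 in these contrasts. Mean CPM per kilobase of annotated exon gives a rough comparison between genes that depends on the length used. The annotated exons of SOD2 span 16493 bases, against 2373 for NFKBIA and 7518 for BIRC3. Transcript lengths in these cells were not measured, so the rank of SOD2 among the members is uncertain. On this scale NFKBIA was the highest member in SRSF2-OE, at 78.0, with SOD2 at 28.7 and BIRC3 at 15.7. In SRSF6-OE SOD2 stood at 35.1 and 113 in the 2 libraries, NFKBIA at 77.0 to 82.6 and BIRC3 at 69.4 to 94.1. In Control SOD2 was the highest, at 171, with NFKBIA at 100.5 and BIRC3 at 83.0. RELB was the lowest member on this scale in all 6 groups, at 5.42 to 11.1.

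In direct comparisons of the overexpression groups, the smallest p values of BIRC3 and BIRC2 involved SRSF6-OE, without a call. Over the 10 contrasts among these groups, 0 of 90 values passed edgeR's adjusted threshold, where 0% to 0.0234% of all genes were called. An unadjusted p under 0.05 was found for 19 of the 90 values (21.1%) and for 3.49% to 17.3% of all genes in these contrasts. The smallest adjusted p was 0.067, for BIRC3 in SRSF2-OE against SRSF6-OE, with a log2 fold change of -1.90 ± 0.27. BIRC3 was also 1.89 ± 0.30 log2 units higher in SRSF6-OE than in TRA2B-OE (adjusted p = 0.158) and 1.40 ± 0.29 lower in SRSF4-OE than in SRSF6-OE (adjusted p = 0.648). BIRC2 was 1.17 ± 0.22 log2 units lower in SRSF2-OE than in SRSF6-OE (adjusted p = 0.104). Ordered by mean CPM from low to high, BIRC3 stood at 118 in SRSF2-OE, 191 in TRA2B-OE, 226 in SRSF9-OE, 255 in SRSF4-OE, 615 in SRSF6-OE and 624 in Control. SOD2 followed the order 473 in SRSF2-OE, 604 in SRSF4-OE, 761 in SRSF9-OE, 1023 in TRA2B-OE, 1220 in SRSF6-OE and 2817 CPM in Control. Both orders pool the label sets, and the fit with a label set term turned some neighbours round. For SOD2, SRSF2-OE lay 0.66 ± 0.38 above SRSF4-OE and SRSF9-OE 0.82 ± 0.40 above TRA2B-OE on the log2 scale. For BIRC3, SRSF4-OE lay at -0.43 ± 0.29 against SRSF9-OE, while SRSF2-OE and TRA2B-OE were nearly level, at -0.0043 ± 0.29. In these orders over all 9 genes, 0 of 45 pairs of neighbouring groups differed by edgeR's adjusted threshold (smallest adjusted p 0.161). An unadjusted p under 0.05 was found for 5 of the 45 (11.1%), within the 3.49% to 19.5% of all genes over the contrasts with Control and among the overexpression groups.

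Across the 14 libraries most pairs of members had a positive correlation, which was not compared with pairs of other genes. Pearson's r of log2 CPM was above 0 for 35 of 36 pairs, with a median of 0.52, and 11 pairs had an adjusted permutation p under 0.05 over the 36 (100000 resamples, two-sided). NFKB2 and TNFAIP3 were the closest pair, with r = 0.96 and rho = 0.89 (n = 14, permutation p = 1e-05 and 5e-05, adjusted p = 0.00036 and 0.0018), the first of which is the smallest p the resamples can give. Without the 2 libraries farthest from the median of NFKB2, r was 0.88. BIRC3 and SOD2 had r = 0.83 and rho = 0.85 (permutation p = 0.00032 and 0.00025, adjusted p = 0.0024 and 0.0045), and r = 0.72 without the 2 libraries farthest from the median of BIRC3. Within the 10 libraries with numeric labels, NFKB2 and TNFAIP3 had r = 0.98 and rho = 0.99 (permutation p = 1e-05 for both), and BIRC3 and SOD2 had r = 0.72 and rho = 0.77 (permutation p = 0.017 and 0.013). The other label set held 4 libraries, too few for a value. RELA was the member least related to the others, with r = -0.15 to SOD2 and 0.018 to BIRC3. NFKB2 with RELB had r = 0.85, and RELB with TNFAIP3 had r = 0.83. These libraries share groups, label sets and depth, so the points are not free of common structure. The permutation p values do not allow for that structure. The shares of positive and passing pairs among all genes are not given here. The counts of such pairs therefore do not set the members apart from other genes.

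**Figure D4:**
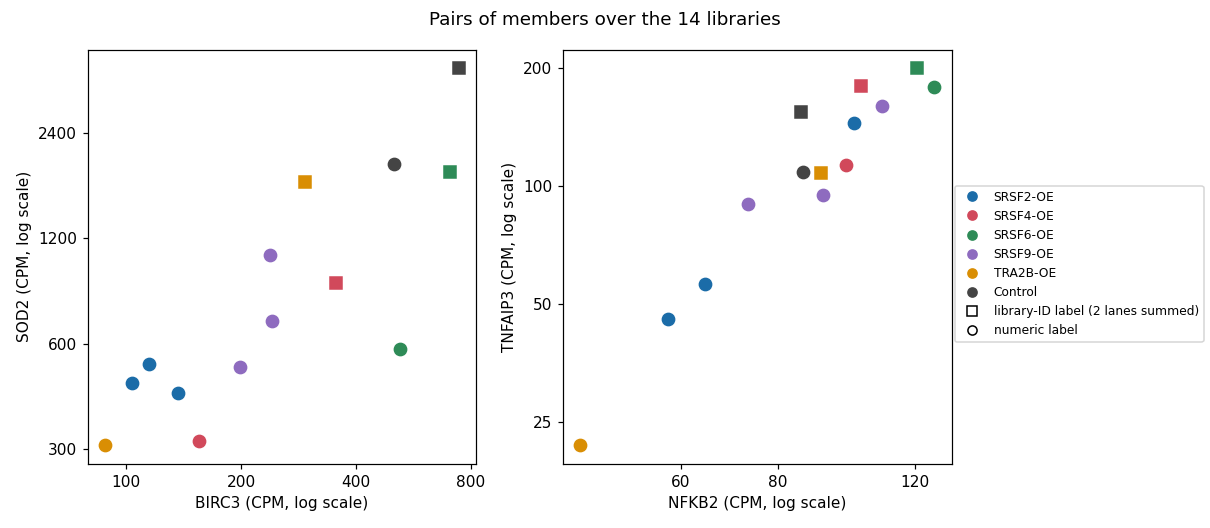
SOD2 against BIRC3 and TNFAIP3 against NFKB2 in the 14 libraries, all axes in CPM on log scales, coloured by group with squares for summed libraries and circles for numeric labels. The right panel is close to a line (r = 0.96), and in the left panel the numeric library labelled SRSF6-OE holds BIRC3 of 522 CPM with SOD2 of 579 CPM, below the trend of the others.

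Outside the members, the genes most like SOD2 over the 14 libraries, among 11432 genes compared by Pearson's r of log2 CPM, were GFPT2 (r = 0.96), UNC50 (0.93) and NCK1 (0.91). GFPT2, an enzyme of the hexosamine pathway, ranged from 0.652 to 14.4 CPM, and NCK1, a signalling adaptor, from 33.6 to 89.0 CPM. The genes most like BIRC3 were ZC3H12C, a zinc finger ribonuclease-like gene (r = 0.92, 47.8 to 177 CPM), SMIM7 (0.92) and NCK1 (0.92). The closest to NFKBIA were ENDOV (0.83), POU6F1 (0.82) and RNF220 (0.81).

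The windows of 250 bases before the RefSeq transcription starts (GRCh38.p14) are shown for the 4 members that feed back on the pathway or moved most, 5′ to 3′ on the strand of the gene. Capitals mark letters that match the kB decamer consensus of NF-kB dimers on either strand.
BIRC3 (chr11:102317234-102317483, plus strand): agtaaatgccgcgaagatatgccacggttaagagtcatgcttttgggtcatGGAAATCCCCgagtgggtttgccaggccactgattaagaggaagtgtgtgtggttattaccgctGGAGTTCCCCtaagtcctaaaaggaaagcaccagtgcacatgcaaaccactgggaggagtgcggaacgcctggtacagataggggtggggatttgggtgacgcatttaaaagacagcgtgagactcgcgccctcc
NFKBIA (chr14:35404750-35404999, minus strand): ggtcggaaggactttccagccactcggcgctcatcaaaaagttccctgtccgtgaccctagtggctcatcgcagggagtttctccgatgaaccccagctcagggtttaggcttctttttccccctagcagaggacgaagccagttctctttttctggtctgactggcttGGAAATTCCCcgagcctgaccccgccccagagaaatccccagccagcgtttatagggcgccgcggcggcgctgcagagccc
TNFAIP3 (chr6:137867009-137867258, plus strand): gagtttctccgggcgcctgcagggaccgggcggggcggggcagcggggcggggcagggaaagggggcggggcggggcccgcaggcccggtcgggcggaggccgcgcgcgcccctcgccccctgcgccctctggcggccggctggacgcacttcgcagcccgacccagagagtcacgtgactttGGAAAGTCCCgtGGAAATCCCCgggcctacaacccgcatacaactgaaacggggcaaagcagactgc
SOD2 (chr6:159727385-159727634, minus strand): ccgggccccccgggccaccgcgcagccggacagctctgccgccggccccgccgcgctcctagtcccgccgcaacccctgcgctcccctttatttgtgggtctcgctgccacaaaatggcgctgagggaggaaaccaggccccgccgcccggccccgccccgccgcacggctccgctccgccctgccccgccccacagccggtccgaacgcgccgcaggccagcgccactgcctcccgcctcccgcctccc

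A match to the kB consensus was present in 5.21% of the 35116 windows of this length over all genes. Windows were found for 8 of the 9 members, 16 in all, and 6 of the 16 held a match, in NFKB1, NFKB2, NFKBIA, TNFAIP3 and BIRC3. BIRC3 had a match 199 and another 135 bases before the start, NFKBIA 1 at 81 bases and TNFAIP3 at 67 and 55 bases. NFKB1 had GGGAATTTCC 49 bases before its start, and the matches of NFKB2 included the palindrome GGGAATTCCC, which counts on both strands. The window of SOD2 shown and its 3 others had no match, nor had those of RELA and BIRC2. These matches describe letters and not binding.

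The rest of the pathway was described with lists of its components. Of the other core genes, 9 of 10 were tested, and edgeR called 0 in each contrast with Control. REL, the c-Rel subunit, was 19.0 and 20.6 CPM in SRSF6-OE and 14.2 and 21.4 CPM in TRA2B-OE, against 40.2 and 32.0 CPM in Control, and DESeq2 called it lower in both groups (log2 fold change -0.87 ± 0.25 and -1.02 ± 0.25 in edgeR). All other overexpression libraries held 17.2 to 30.2 CPM of REL, also below both Control libraries. Such a separation of all 12 libraries was found for 3.87% of all genes. The median of these core genes was 0.45 in SRSF6-OE and 0.03 to 0.19 in the other groups, against medians of all genes between -0.04 and 0.04.

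Among 15 tested of 18 ligands and receptors, edgeR called 0 in each contrast. CD40, a receptor that activates the slower route, was 0.0789 and 0 CPM in SRSF4-OE against 1.72 and 2.08 CPM in Control, and DESeq2 called it lower. Without a call, all other overexpression libraries held 0.0225 to 1.74 CPM of CD40. IL1R1, the signalling receptor of interleukin 1, was 20.9 and 9.44 CPM in SRSF4-OE and 30.4 and 5.17 CPM in SRSF6-OE, against 116 and 40.8 CPM in Control, and DESeq2 called it lower in both groups. Without a call, IL1R1 was 22.3 to 84.0 CPM in SRSF2-OE, 11.9 to 23.7 CPM in SRSF9-OE and 37.6 to 73.3 CPM in TRA2B-OE. Among 19 tested of 20 adaptors and ubiquitin enzymes edgeR likewise called 0. CYLD, a deubiquitinase that damps the pathway, was 56.2, 56.6 and 56.2 CPM in SRSF2-OE, 91.4 and 70.4 CPM in SRSF4-OE and 79.2 and 50.3 CPM in TRA2B-OE, against 196 and 109 CPM in Control. DESeq2 called CYLD lower in these 3 groups, with log2 fold changes of -1.17 ± 0.22, -0.88 ± 0.22 and -1.22 ± 0.22 in edgeR. Without a call, CYLD was also below both Control libraries in SRSF6-OE (95.9 and 102 CPM) and SRSF9-OE (61.5 to 82.8 CPM). TRAF1, an adaptor induced by NF-kB, was 4.18 and 1.13 CPM in SRSF4-OE against 12.8 and 9.12 CPM in Control, and was called lower by DESeq2. All other overexpression libraries held 3.16 to 8.96 CPM of TRAF1, also below both Control libraries. Separation of all 12 libraries, as for CYLD and TRAF1, was found for 3.87% of all genes.

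The other NF-kB targets had median log2 fold changes above 0 in all 5 groups. Of the 19 tested among 24, 10 lay above Control in SRSF2-OE, 14 in SRSF4-OE, 13 in SRSF6-OE, 13 in SRSF9-OE and 12 in TRA2B-OE, with median log2 fold changes of 0.25, 0.75, 1.14, 0.35 and 0.22, and edgeR called 0. MMP9, a gelatinase, was the only target DESeq2 called, at 2.27 and 5.40 CPM in SRSF6-OE against 0.00765 and 0.216 CPM in Control (log2 fold change 5.39 ± 1.79 in edgeR, adjusted p = 0.184). Without a call, MMP9 was 1.37 to 1.93 CPM in SRSF2-OE and 1.13 and 3.51 CPM in SRSF4-OE. It was 0.45 to 1.70 CPM in SRSF9-OE and 0.0591 and 5.875 CPM in TRA2B-OE. The low level in Control makes the size of the MMP9 fold change uncertain. The other antioxidant enzymes, 8 tested of 9, had medians of 0.08, 0.22, -0.04, 0.12 and 0.32 in the same order of groups and 0 calls by either tool. SOD1, the cytoplasmic relative of SOD2, had log2 fold changes between -0.16 and 0.29. The list around the inhibitor of apoptosis family also held DIABLO and HTRA2, which are not members of it. Of its 7 genes 5 were tested, with 0 calls by either tool, and XIAP lay between -0.57 and -0.17.

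**Figure D5:**
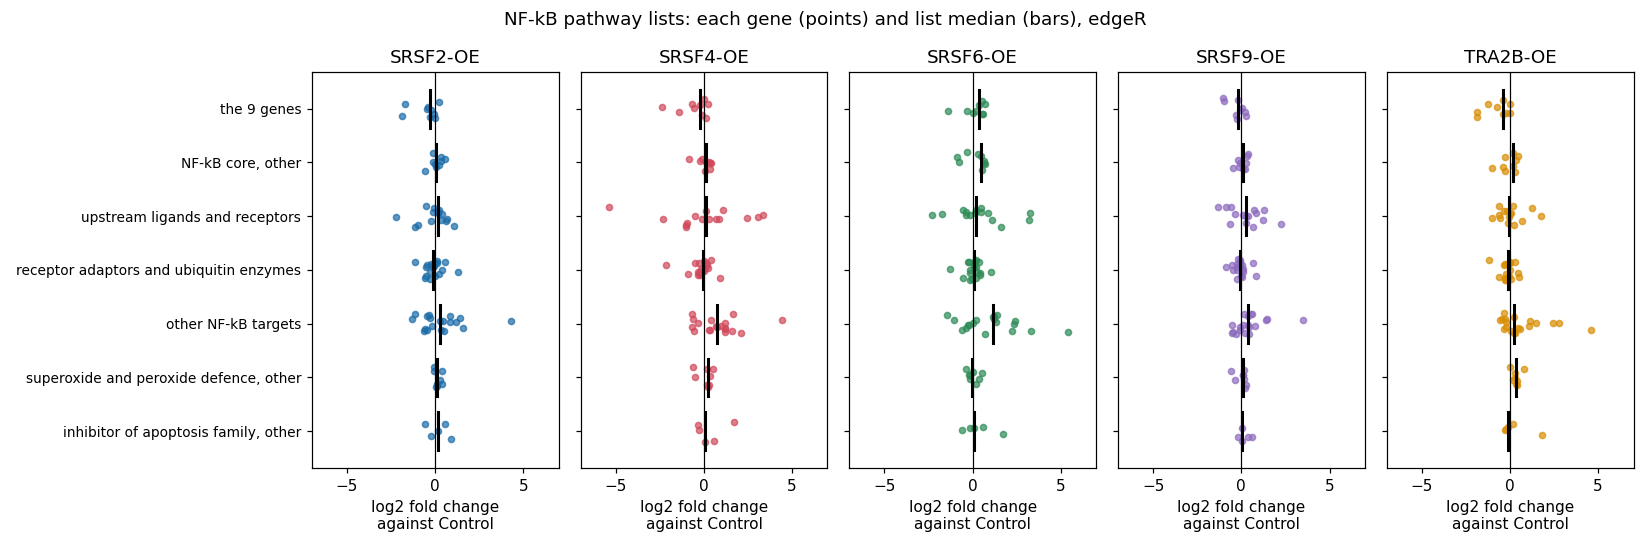
Log2 fold change against Control (horizontal axis, edgeR) of each tested gene of the 9 members and 6 other pathway lists in the 5 overexpression groups, with black bars at list medians. The members centre below 0 in SRSF2-OE, SRSF4-OE, SRSF9-OE and TRA2B-OE, while the other NF-kB targets centre above 0 in all 5 groups.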

How the data were processed

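The deposited table gave raw counts per gene for 18 samples of a stranded mRNA kit, as the authors' deposited whole numbers, with totals of 36426438 to 70515965 per sample. The submitters' processing notes name GRCh37 as the build and list STAR 2.5.1b, Trimmomatic 0.36, featureCounts and Subread. The sources used here do not say whether counting used strand or read pairs. Names came from GENCODE release 29 (GRCh38) by gene ID, for 55951 of 60252 IDs, without coordinates, and exon lengths and overlaps are those of that annotation. Groups came from the labelled construct. Replicates 1 and 2 of SRSF4-OE, SRSF6-OE, TRA2B-OE and Control carry the same library ID and barcode and were summed; mean chi-square per gene was 3.82 to 9.06 between such lanes and 58.8 to 318 between other samples of a group.

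The 14 libraries were fitted in R 4.3.3 with edgeR 4.0.16 (TMM, filterByExpr with a minimum count of 10, quasi-likelihood test on group and label set, 7 residual degrees of freedom, common biological coefficient of variation 0.318). Benjamini-Hochberg adjustment ran over 21326 genes, with a threshold of 0.05. DESeq2 1.42.0 and limma 3.58.1 (voom), TMM against DESeq2 size factors, no filter, no label set term, 18 separate samples, fewer libraries and leaving out each library were alternatives. On simulated counts for 21326 genes, edgeR recovered 34.8% to 56.1% of 66 genes changed 4-fold per contrast with 0 to 5 false calls, and DESeq2 56.1% to 77.3% with 36 to 57. The simulated counts held no label set effect and no group differences beyond those set, so these shares need not hold for the real counts. Intervals given as ± are SE for log2 fold changes and SD for CPM.

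The members and lists were chosen with earlier results of these data known. Named genes were all members, list genes called by edgeR or DESeq2 (at most 4 per list), and the 3 genes of highest Pearson r with NFKBIA, BIRC3 and SOD2 with a mean of at least 3 CPM. WTAP, SOD1, XIAP and marker genes that no tool called were named after their values were seen. PECAM1 was not matched by symbol. Promoter windows came from RefSeq.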

Additional observations from a re-analysis of the deposited data

How the results depend on the processing

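Of 1035 values of the 9 genes in the 5 contrasts with Control under 23 alternatives, 963 kept their direction and their side of the threshold, 49 changed sign and 23 newly passed the threshold. SOD2 was below Control in all of them, from -2.78 (SRSF4-OE) to -0.38 (SRSF9-OE), and so was BIRC3 outside SRSF6-OE, from -2.42 (SRSF2-OE) to -0.59 (SRSF9-OE).

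The count of members called, 0 in edgeR, was 2 in SRSF2-OE, 2 in SRSF4-OE, 1 in SRSF6-OE and 2 in TRA2B-OE with DESeq2, and 3 in the test over all groups. With the 18 samples taken as separate replicates it was 2 in SRSF2-OE, 3 in SRSF4-OE, 1 in SRSF6-OE and 2 in TRA2B-OE and 3 over all groups, where 6.4%, 16.5%, 19.2%, 13.8% and 17.7% of all genes were called. Without the filter on low counts it was 1 in SRSF2-OE, 1 in TRA2B-OE and 2 over all groups (0.00505%, 0.0303% and 0.126% of all genes). With only the libraries compared it was 2 in SRSF4-OE, beside 12.2% of all genes. Without the 2 libraries of highest mitochondrial share, an alternative chosen after seeing the data, it was 1 in SRSF2-OE, 2 in SRSF4-OE and 1 over all groups (0.207%, 0.396% and 0.337% of all genes). Without SRSF2-OE replicate 1 it was 1 in SRSF2-OE, for BIRC3, beside 0.325% of all genes. Counts from fits that left a group with 1 library are not given. The cause was not tested.

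Signs changed as follows, in values that edgeR did not call. NFKB1 in SRSF2-OE was 0.0099 with 18 samples, and in TRA2B-OE -0.0066 without the filter. BIRC3 in SRSF6-OE was 0.022 with DESeq2, 0.022 with its size factors in edgeR and 0.010 without the filter. TNFAIP3 in SRSF9-OE was -0.19 without the label set term, -0.20 with only the libraries compared and -0.25 with the replicate block. RELA in TRA2B-OE was -0.026 without the filter, -0.098 with 18 samples and -0.042 without the 2 libraries of highest mitochondrial share, and NFKB2 in TRA2B-OE was then 0.075. The cause was not tested.

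Leaving out 1 library at a time gave, for BIRC2, -0.48 to 0.15 in SRSF4-OE and -0.53 to 0.090 in TRA2B-OE, and for BIRC3 in SRSF6-OE -0.40 to 0.32. NFKB1 ran from -0.078 to 0.088 in SRSF2-OE, -0.030 to 0.13 in SRSF4-OE, -0.0082 to 0.15 in SRSF9-OE and -0.096 to 0.14 in TRA2B-OE. NFKB2 ran from -0.37 to 0.13 in SRSF2-OE and -0.93 to 0.076 in TRA2B-OE. RELA ran from -0.27 to 0.55 in SRSF2-OE, -0.46 to 0.39 in SRSF4-OE, -0.58 to 0.25 in SRSF9-OE and -0.37 to 0.46 in TRA2B-OE. RELB ran from -0.67 to 0.049 in SRSF2-OE and -0.48 to 0.26 in SRSF9-OE. TNFAIP3 ran from -0.92 to 0.12 in SRSF2-OE, -0.076 to 0.41 in SRSF4-OE and -0.058 to 0.60 in SRSF9-OE. Where this left a group with 1 library, that library was assumed to vary like the other groups.

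The main fit did not pair libraries by the replicate numbers of the titles. Correlations of deviations from group means between same-numbered libraries ran from -0.42 to 0.49. In the groups of 2 libraries the number follows the label set, so these values cannot tell pairing from label set. With the replicate block 0 members were called in any contrast.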
